A study of Mus musculus with 8 samples.

Results

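The enzymes described here are the aldehyde dehydrogenases (Aldh), alcohol dehydrogenases (Adh), aldo-keto reductases (Akr) and carbonyl reductases (Cbr) of the mouse lung. They were taken by symbol, as every gene whose name follows the pattern of these 4 families, except Aldh3a1, Akr1b8 and Cbr2, and this gave 42 of the 22756 genes counted. Of the 42, 22 reached a mean of at least 200 counts over the libraries and were tested among 7190 genes. A further 13 were below this mean, 2 (Akr1d1 and Aldh8a1) had at most 3 counts in every library, and 5 (Adh4, Adh6b, Akr1c6, Akr1c20 and Akr1c21) had 0 counts in every library, which allows 0.274 to 0.374 RPM (3 counts of a library's total, counting error only).

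Tobacco smoke carries acrolein, formaldehyde, acetaldehyde and quinones, and oxidised membrane lipids release further aldehydes such as 4-hydroxynonenal. Aldehyde dehydrogenases oxidise these to acids, whereas aldo-keto and carbonyl reductases reduce aldehydes, ketones and quinones to alcohols with NADPH. Alcohol dehydrogenases interconvert alcohols and aldehydes, among them ethanol and retinol, and several aldehyde dehydrogenases of the 1A class make retinoic acid. In the lung, club cells are known to be rich in enzymes that metabolise foreign compounds.

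RNA-Seq was of cells of the distal lung from adult mice of mostly C57BL/6 background. The control line, α7G, carries a tau-GFP reporter behind an IRES in Chrna7, and α7E260A:G carries the same reporter together with a point mutation in the receptor. Mice of each line were either unexposed (control) or received side-stream cigarette smoke (CS) during 4 months, 5 days a week. Each of the 4 groups had 1 male and 1 female library, 8 in all, so a spread within a group is that between the sexes, and nothing states whether a library came from 1 or several mice. Control mice of both lines carry the reporter, so the reporter alone was not compared with an unmodified gene.

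The libraries held 8020726 to 10944100 reads on coding sequences (CDS counts), given here as RPM, reads scaled to a library total of 1000000. The cells were depleted of CD45-positive cells by the submitters, and markers of type 2 and club cells were abundant, at 4821 to 30802 and 14987 to 71638 RPM summed over 10 and 4 genes. Markers of alveolar macrophages, which the depletion should remove, were abundant too, at 21331 to 33358 RPM in α7G and 38000 to 70341 RPM in α7E260A:G, with 13 of 13 higher in the mean of α7E260A:G. Fibroblast markers summed to 1177 to 3283 RPM in controls and 2565 to 3555 RPM after CS (9 of 10 higher), and those of type 2 cells were lower in α7E260A:G in 10 of 10 (20198 to 30802 RPM in α7G, 4821 to 14899 RPM in α7E260A:G). None of the defining markers examined was at 0 in every library. The male α7E260A:G CS library stood apart in red cell genes, at 9374 RPM against 198 to 2175 RPM in the others, and without it 7 members instead of 6 had an unadjusted p under 0.05 for CS over both genotypes. In such tissue RNA, fewer cells of a type and less RNA per cell cannot be told apart, and the part of these markers in the results that follow was not tested.

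Among the 42, the amount was dominated by 2 genes. Aldh1a1, the cytosolic retinaldehyde dehydrogenase, which also oxidises aldehydes from lipid peroxidation, had the highest level per coding length, at a mean of 1344 RPM per kb, and Akr1a4, the NADPH-dependent aldehyde reductase, followed with 999. The next were Aldh3b1 (182), which oxidises medium- and long-chain aldehydes, Adh5 (125), the glutathione-dependent formaldehyde dehydrogenase, and Cbr1 (120), a reductase of quinones and carbonyls. In total the 42 genes summed to 3470 to 5482 RPM per library, and Aldh1a1 and Akr1a4 made up 62.0% to 72.4% of that sum. Outside the 42, Cbr2 was at 2946 to 7040 RPM, above Aldh1a1 in every library. Aldh2, whose symbol the pattern did not take, was at 411 to 755 RPM. The lowest tested member per kb was Aldh4a1 of proline breakdown, at a mean of 14.9 RPM per kb.

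**Figure D1:**
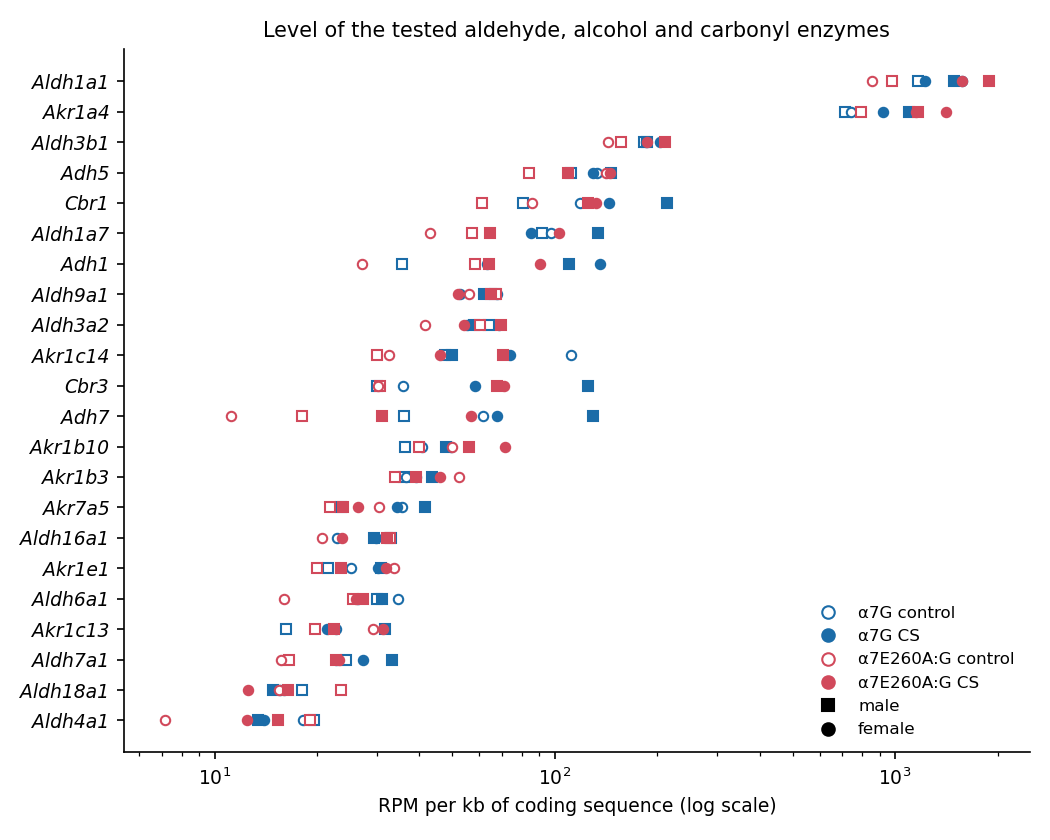
Level of the 22 tested members in each library, as RPM per kb of coding sequence on a logarithmic axis, ordered by the mean. Aldh1a1 and Akr1a4 lie apart from the rest, and several members with filled symbols (CS) to the right of open symbols (control) are seen below them, namely Aldh3b1, Cbr1, Adh1 and Cbr3, whereas for Adh7 the lowest CS library (34.8 RPM) lies below the highest control (69.1 RPM).

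Over both genotypes, CS libraries had more RNA of the 2 tested carbonyl reductases, Cbr1 and Cbr3, and of the class I and class IV alcohol dehydrogenases. In contrast, log2 fold changes were -0.25 to 0.13 in 5 of the 6 tested aldehyde dehydrogenases of amino acid, carnitine and other roles, all but Aldh7a1. The mean RPM of Cbr3 was 2.54 times, of Adh7 2.25 times, of Adh1 2.17 times and of Cbr1 1.78 times that of the controls. In the 4-group model of edgeR, 0 of the 22 members had an adjusted p under 0.05, beside 0% of the 7190 genes, so the values that follow are differences that did not survive correction for the number of genes. At an unadjusted p under 0.05 there were 6 members, all higher with CS, namely Cbr3, Adh7, Adh1, Cbr1, Aldh7a1 and Aldh1a1. That is 6 of 22 beside 7.58% of all tested genes, 2.5% higher and 5.08% lower. DESeq2 gave 2 members with an adjusted p under 0.05, Cbr3 (adjusted p = 0.0032) and Adh7 (adjusted p = 0.0495), beside 0.542% of all tested genes. The median log2 fold change was 0.26 over the 22 members (19 above 0) and -0.00 over all tested genes. Without the α7G control male or the α7G CS male library the count of 6 was 3, and without the α7E260A:G control female library it was 10.

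The 2 tested carbonyl reductases lie on chromosome 16, Cbr1 (ENSMUSG00000051483.8) from 93608082 to 93610750 and Cbr3 (ENSMUSG00000022947.7) from 93683460 to 93691235 of NCBIM37. Both reduce quinones and other carbonyls, and their coding sequences were identical at 77.9% of aligned bases with no identical stretch beyond 50 bases. Cbr3 had 24.9 RPM in the male and 29.7 RPM in the female α7G control, and 25.5 and 25.1 RPM in the male and female α7E260A:G control. After CS it had 104 RPM in the male and 48.4 RPM in the female α7G library, and 56.1 and 58.9 RPM in the male and female α7E260A:G libraries. The 4 controls thus lay close together, and every CS library was above all of them (26.3 ± 2.27 against 66.8 ± 25.02 RPM, mean ± SD, n = 4 each, two-sided exact permutation p = 0.0286, the smallest that 4 against 4 libraries allow, and one of 22 such tests with no adjustment). In edgeR the log2 fold change of Cbr3 was 1.34 (SE 0.27, unadjusted p = 0.0014, adjusted p = 0.63). Its unadjusted p stayed under 0.05 in 8 of 8 fits that each left out 1 library (0.00035 to 0.0090).

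Cbr1 had 67.1 and 98.2 RPM in the male and female α7G control and 50.8 and 71.3 RPM in the male and female α7E260A:G control. After CS these were 178 and 120 RPM in α7G and 104 and 110 RPM in α7E260A:G. Here too the CS and control libraries did not overlap, by a gap of 5.90 RPM. The male α7G CS library was the highest for both reductases, as it also was for Adh7, Aldh1a7 and Aldh7a1. The log2 fold change of Cbr1 was 0.82 (SE 0.26, edgeR, unadjusted p = 0.016, adjusted p = 0.63), and the unadjusted p was over 0.05 without the α7G control male or the α7G CS male library. Cbr4, a mitochondrial reductase of fatty acid synthesis, was below the abundance filter, at 9.50 to 20.5 RPM with overlapping groups.

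Adh1, the class I enzyme of ethanol and retinol oxidation, and Adh7, the class IV enzyme known from epithelia of the upper digestive tract, lie near each other on chromosome 3 of NCBIM37, Adh7 (ENSMUSG00000055301.7) from 137880787 to 137896346 and Adh1 (ENSMUSG00000074207.4) from 137923955 to 137953662. Their coding sequences were identical at 69.2% of aligned bases, with no identical stretch beyond 14 bases. Adh1 had 39.9 and 71.2 RPM in the male and female α7G control and 124 and 152 RPM after CS. In α7E260A:G it had 65.7 and 30.6 RPM in the male and female control and 72.2 and 102 RPM after CS. All 4 CS libraries exceeded all 4 controls (exact permutation p = 0.0286), although by only 0.987 RPM between the female α7G control and the male α7E260A:G CS library. The log2 fold change was 1.14 (SE 0.29, edgeR, unadjusted p = 0.0059, adjusted p = 0.63), with an unadjusted p under 0.05 in 8 of 8 fits that left out 1 library.

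The summed fibroblast markers, like Adh1, were higher with CS in each sex and genotype. So were the sums of the mesothelium, alveolar type 1 cell, general epithelium and alveolar macrophage markers, so this was not particular to fibroblasts. The part of any of these markers in the Adh1 values was not tested. The fibroblast sum was 1454 and 1643 RPM in the male and female α7G control and 2758 and 2828 RPM after CS. In α7E260A:G it was 3283 RPM in the male control and 3555 RPM in the male CS library, where the ratio of Adh1 was lowest (1.10), and 1177 and 2565 RPM in the female control and CS libraries, where it was highest (3.34). Between the genotypes the fibroblast markers and Adh1 went opposite ways. In the mean of α7E260A:G 9 of 10 fibroblast markers were higher, whereas Adh1 was lower (67.6 against 96.8 RPM in α7G, exact permutation p = 0.37). The 5 tested genes whose log2 RPM correlated best with Adh1 over the 8 libraries were Nbl1 (r = 0.97), Eri3 (0.96), Dpt (0.96), Fbln1 (0.94) and Clec3b (0.94). Dpt and Fbln1 encode proteins of the extracellular matrix. These correlations describe 8 libraries that share groups and depth and were chosen as the highest of 7190, so no p is given.

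Adh7 had 40.4 and 69.1 RPM in the male and female α7G control and 146 and 75.8 RPM after CS. The male and female α7E260A:G control had 20.2 and 12.5 RPM and the CS libraries 34.8 and 63.8 RPM. Each CS library was above the control of its own sex and genotype, but CS and control overlapped across genotypes, since the α7E260A:G libraries were low. The log2 fold change with CS was 1.35 (SE 0.35, edgeR, unadjusted p = 0.0059, adjusted p = 0.63), again with an unadjusted p under 0.05 in 8 of 8 fits that left out 1 library. The sum of 6 mesothelium markers was also higher with CS in each sex and genotype, at 48.1 to 107 RPM in controls and 82.4 to 154 RPM after CS. So were the sums of the fibroblast, alveolar type 1 cell, general epithelium and alveolar macrophage markers, so this was not particular to mesothelium. The part of any of these markers in the Adh7 values was not tested.

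**Figure D2:**
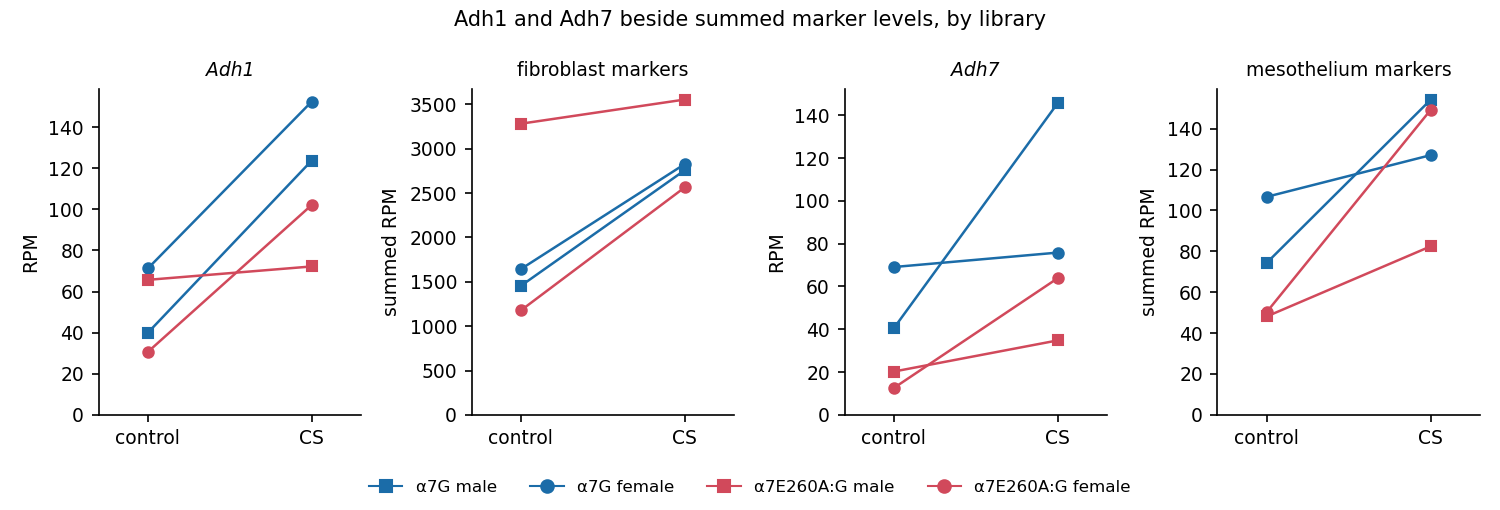
Adh1 and Adh7 (RPM) beside the summed RPM of 10 fibroblast and 6 mesothelium markers, in control and CS libraries, with a line joining the 2 libraries of each sex and genotype. In the male α7E260A:G libraries both Adh1 (65.7 and 72.2 RPM) and the fibroblast markers (3283 and 3555 RPM) changed little between control and CS. The sums of alveolar type 1 cell, general epithelium and alveolar macrophage markers, not drawn, were also higher with CS in each sex and genotype.

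Adh5 was at 93.9 to 159 RPM in controls and 123 to 164 RPM after CS, with a log2 fold change of 0.17 (SE 0.28, edgeR, unadjusted p = 0.56) that was 0.51 (unadjusted p = 0.038) without the α7E260A:G control female library. In the male and female libraries it had 125 and 149 RPM in α7G control, 164 and 145 RPM in α7G CS, 93.9 and 159 RPM in α7E260A:G control and 123 and 163 RPM in α7E260A:G CS. Adh6a had 11 counts in the female α7G control, 3 in the female α7E260A:G CS library and 0 in the other 6 libraries.

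The stretches of 250 bases before the RefSeq start are shown for the 4 tested members with the largest fold changes with CS over both genotypes. The reason is that the means of all 4 were higher with CS. Coordinates are in GRCm38.p6 and sequences are of RefSeq. For Adh1 this start is not that of the GENCODE M1 span given above. The stretches were searched on both strands for TGACNNNGC, the core of the antioxidant response element, and GCGTG, the core of the dioxin response element. The capitals mark the matches found.
Cbr3 (chr16:93682969-93683218, plus strand): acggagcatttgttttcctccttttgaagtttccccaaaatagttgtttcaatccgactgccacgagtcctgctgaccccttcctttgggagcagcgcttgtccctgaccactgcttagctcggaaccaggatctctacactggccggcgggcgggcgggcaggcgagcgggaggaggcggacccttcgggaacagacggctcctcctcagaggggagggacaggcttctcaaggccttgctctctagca
Cbr1 (chr16:93607587-93607836, plus strand): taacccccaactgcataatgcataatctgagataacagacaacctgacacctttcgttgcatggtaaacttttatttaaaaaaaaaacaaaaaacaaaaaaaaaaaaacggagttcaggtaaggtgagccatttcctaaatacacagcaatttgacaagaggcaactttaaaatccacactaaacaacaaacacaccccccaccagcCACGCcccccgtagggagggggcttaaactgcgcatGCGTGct
Adh1 (chr3:138277335-138277584, plus strand): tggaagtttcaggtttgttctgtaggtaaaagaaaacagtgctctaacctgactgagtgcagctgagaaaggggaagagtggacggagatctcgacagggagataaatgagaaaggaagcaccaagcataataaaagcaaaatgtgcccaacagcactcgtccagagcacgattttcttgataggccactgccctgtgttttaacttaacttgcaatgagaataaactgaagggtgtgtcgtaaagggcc
Adh7 (chr3:138217523-138217772, plus strand): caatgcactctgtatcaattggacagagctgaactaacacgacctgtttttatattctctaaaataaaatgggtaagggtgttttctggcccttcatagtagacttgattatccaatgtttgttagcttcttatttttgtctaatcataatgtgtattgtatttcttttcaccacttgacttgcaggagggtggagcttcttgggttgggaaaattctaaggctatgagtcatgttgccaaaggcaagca
Cbr1 held 2 matches to GCGTG, 1 of them on the opposite strand, and the other stretches held none. TGACNNNGC was in none of the 4. Among all 32851 such stretches, 28.2% held GCGTG and 10.2% held TGACNNNGC. Of the 34 members with an entry under their symbol (37 stretches), GCGTG was in 6 (Aldh18a1, Aldh1a2, Aldh3a2, Aldh4a1, Aldh9a1 and Cbr1) and TGACNNNGC in 3 (Adh6a, Aldh1a2 and Aldh9a1). A match is a description of the letters in this window and not a shown binding site.

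**Figure D3:**
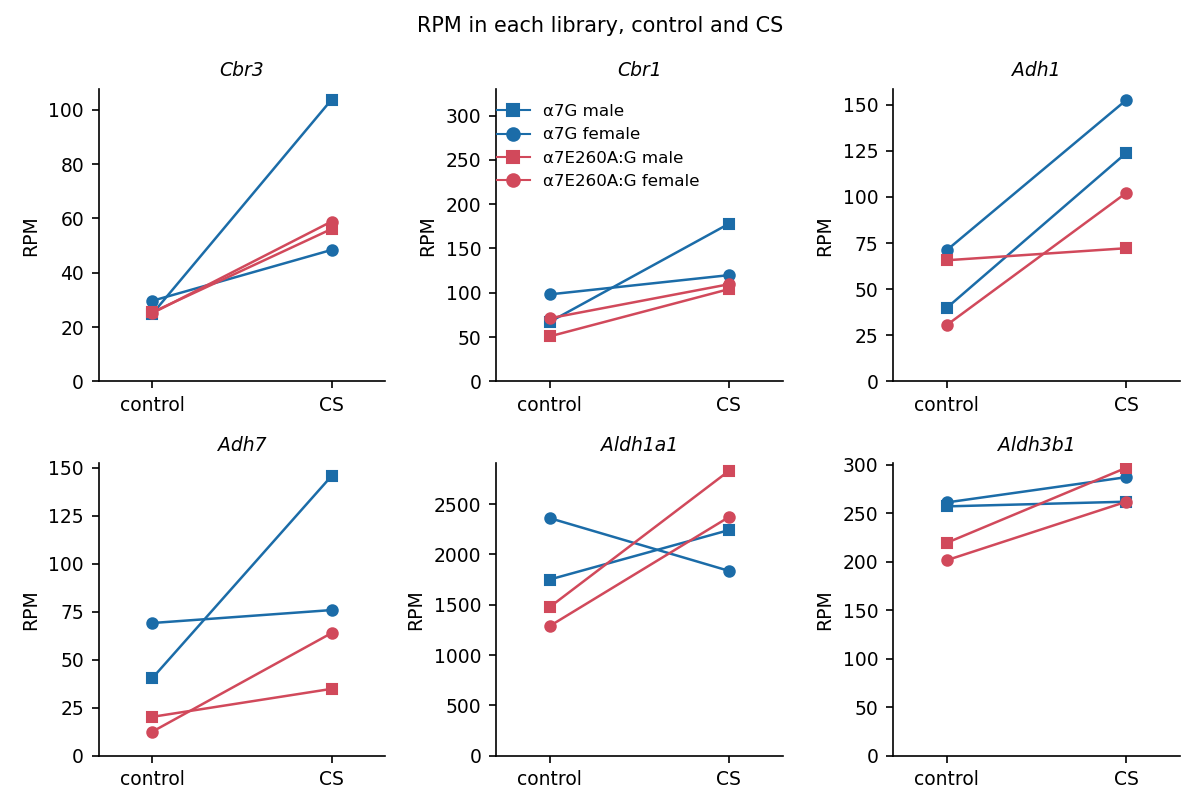
RPM of 6 members in each library, control at the left and CS at the right of each panel, with a line joining the 2 libraries of each sex and genotype. For Cbr3, Cbr1, Adh1 and Aldh3b1 every CS library lies above every control, whereas for Aldh1a1 the female α7G libraries (2361 and 1838 RPM) run opposite to the other pairs.

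Aldh1a1 (ENSMUSG00000053279.6, chromosome 19 from 20676451 to 20717952 of NCBIM37) had 1751 and 2361 RPM in the male and female α7G control and 2242 and 1838 RPM after CS. In α7E260A:G it had 1477 and 1288 RPM in the male and female control and 2830 and 2371 RPM after CS. The α7E260A:G controls were the lowest and the α7E260A:G CS libraries the highest of the 8, whereas in α7G the sexes moved in opposite directions. The log2 fold change with CS was 0.10 (SE 0.27) in α7G and 0.82 (SE 0.27, unadjusted p = 0.019, adjusted p = 1.00) in α7E260A:G by edgeR. The difference between these responses, 0.72 (SE 0.38), had an unadjusted p of 0.10 and an adjusted p of 1.00, and this was the smallest p of any member in that comparison, so the responses were not shown to differ. With library size scaling the unadjusted p of this difference in edgeR was under 0.05, but the adjusted p was not. The median log2 fold change of all tested genes in that comparison was then 0.22 instead of 0.03. Over both genotypes the log2 fold change was 0.46 (SE 0.19, unadjusted p = 0.046, adjusted p = 0.63), with an unadjusted p under 0.05 in only 2 of the 8 fits that left out 1 library. The genes most like Aldh1a1 over the 8 libraries were Gclm (r = 0.96), Sfxn1 (0.95), Pla2g4a (0.95), Rnf128 (0.94) and Glul (0.94), of which Gclm encodes a subunit of the enzyme that starts glutathione synthesis.

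Aldh1a7 (ENSMUSG00000024747.3) is a close relative that lies next to Aldh1a1 on chromosome 19, from 20767443 to 20802052. The first 150 coding bases of both, from the GENCODE M1 transcripts, are shown because reads of such similar genes can be hard to place, with the 10 bases that differ in capitals.
Aldh1a1: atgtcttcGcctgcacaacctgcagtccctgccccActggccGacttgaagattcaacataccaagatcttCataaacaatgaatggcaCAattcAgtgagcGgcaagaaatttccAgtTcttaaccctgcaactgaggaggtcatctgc
Aldh1a7: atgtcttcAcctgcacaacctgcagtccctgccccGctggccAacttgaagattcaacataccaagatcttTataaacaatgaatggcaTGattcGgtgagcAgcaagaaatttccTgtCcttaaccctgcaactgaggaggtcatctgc
Over all 1506 bases of the coding sequences 126 differed (91.6% identity), and the longest identical stretch was 100 bases. How the aligner placed reads from identical stretches was not examined, and with Aldh1a1 15.9 times as abundant, the values of Aldh1a7 are uncertain to that extent. Aldh1a7 had 138 and 146 RPM in the male and female α7G control, 202 and 128 RPM in α7G CS, 86.0 and 64.7 RPM in α7E260A:G control and 96.6 and 154 RPM in α7E260A:G CS. CS was higher in 3 of 4 pairs of the same sex and genotype, as it was for Aldh1a1, with a log2 fold change of 0.51 (SE 0.24, unadjusted p = 0.072, edgeR). Reads of Akr1c13 and Akr1c12 are uncertain in the same way, since their coding sequences were 96.2% identical with a stretch of 228 identical bases, and those of Akr1b10 less so, at 85.5% identity to Akr1b8 and at most 80 identical bases in a row.

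Aldh3b1 was the third member of high abundance. It had 257 and 261 RPM in the male and female α7G control, 262 and 287 RPM in α7G CS, 219 and 201 RPM in α7E260A:G control and 297 and 262 RPM in α7E260A:G CS. The difference was small, but the CS libraries (277 ± 17.8 RPM, mean ± SD, n = 4) did not overlap the controls (235 ± 29.0 RPM, n = 4, exact permutation p = 0.0286), with 0.618 RPM between the nearest libraries. By edgeR the log2 fold change was 0.26 (SE 0.14, unadjusted p = 0.11, adjusted p = 0.65). Aldh3a2, the fatty aldehyde dehydrogenase of the endoplasmic reticulum, was at 67.5 to 113 RPM in all libraries.

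In all, 4 of 22 members (Adh1, Aldh3b1, Cbr1 and Cbr3) had every CS library above every control in RPM, beside 1.66% of all tested genes, and 0 had every CS library below, beside 0.417%. Without the α7E260A:G control female library the first count was 7. With TMM scaling of the libraries it was 3, since the lowest CS library of Adh1 (74.5) then lay below its highest control (77.2). Compared only within pairs of the same sex and genotype, 8 members were higher with CS in 4 of 4 pairs, namely the same 4 together with Adh7, Aldh7a1, Akr1a4 and Akr1b10, beside 13.1% of all tested genes. In 4 of 4 pairs 1 member, Aldh9a1 of carnitine synthesis, was lower, beside 12.1%.

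Among the aldo-keto reductases, Akr1a4 had 696 and 722 RPM in the male and female α7G control and 1069 and 896 RPM after CS. The α7E260A:G values were 773 and 1122 RPM in the male and female control and 1141 and 1373 RPM after CS. CS and control overlapped through the female α7E260A:G control (log2 fold change 0.44, SE 0.25, unadjusted p = 0.11, edgeR). Akr1b10, a reductase of retinaldehyde and other aldehydes, was at 34.3 to 47.1 RPM in controls and 45.4 to 67.8 RPM after CS (log2 fold change 0.43, SE 0.22, unadjusted p = 0.090). Of the 4 tested members of the AKR1A, AKR1B and AKR7A classes none had an unadjusted p under 0.05, and the median log2 fold change with CS was 0.29. Akr1b3, the aldose reductase, and Akr7a5, a reductase of dialdehydes, had log2 fold changes of 0.08 and 0.15.

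Of the 3 tested steroid-reducing AKR1C and AKR1E members, Akr1c14, a 3-alpha-hydroxysteroid dehydrogenase, had the highest level per coding length, at a mean of 57.7 RPM per kb. It had 46.2 and 108 RPM in the male and female α7G control and 48.4 and 71.4 RPM after CS. The α7E260A:G values were 29.1 and 31.5 RPM in the male and female control and 68.3 and 44.5 RPM after CS. The female α7G control was the highest library, and no contrast of Akr1c14 had an unadjusted p under 0.05. Akr1c13 and Akr1e1 lay at 16.4 to 31.9 and 18.9 to 31.8 RPM.

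The 6 tested aldehyde dehydrogenases of amino acid, carnitine and other roles had a median log2 fold change with CS of -0.02, 3 above 0. The exception was Aldh7a1 of lysine breakdown and betaine synthesis, with 39.5 and 36.9 RPM in the male and female α7G control and 53.8 and 44.3 RPM after CS. In α7E260A:G it had 26.8 and 25.3 RPM in the male and female control and 36.8 and 37.5 RPM after CS, so each CS library was above the control of its own sex and genotype. Its log2 fold change was 0.45 (SE 0.16, edgeR, unadjusted p = 0.026, adjusted p = 0.63), with an unadjusted p under 0.05 in 4 of 8 fits that left out 1 library. Aldh4a1 and Aldh6a1 of proline and valine breakdown, Aldh18a1 of proline synthesis, and also Aldh9a1 and Aldh16a1, had log2 fold changes of -0.25 to 0.13.

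Within each genotype Cbr3 was among the members that differed most. In α7G, 3 of 22 members had an unadjusted p under 0.05 (Cbr3, Adh1 and Cbr1), beside 6.68% of all tested genes, and 0 had an adjusted p under 0.05, beside 0%. The log2 fold changes were 1.59 (SE 0.38) for Cbr3, 1.42 (SE 0.42) for Adh1 and 0.96 (SE 0.37) for Cbr1, with an adjusted p of 0.59 for each in edgeR. The count of 3 was 1 without the α7G control male library and 5 without either α7E260A:G control library. In a fit of the 4 α7G libraries alone all 3 had an adjusted p under 0.05 (0.020 to 0.037), as had 16.0% of all tested genes, and with DESeq2 Cbr3 had (adjusted p = 0.039), beside 0.355%.

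In α7E260A:G, 3 members had an unadjusted p under 0.05 (Adh7, Aldh1a1 and Cbr3), beside 1.7% of all tested genes, and 0 had an adjusted p under 0.05, beside 0%. The log2 fold changes were 1.58 (SE 0.50) for Adh7 and 1.09 (SE 0.38) for Cbr3, with an adjusted p of 1.00 for each in edgeR. The count was 0 without the α7E260A:G CS female library and 7 without the α7E260A:G control female library. The median log2 fold change of the members was 0.32 in α7G (17 of 22 above 0) and 0.30 in α7E260A:G (16 of 22), beside -0.02 and -0.04 over all tested genes.

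By RPM, 10 members in α7G had both CS libraries above both controls, beside 23.4% of all tested genes, and 3 (Aldh3a2, Aldh4a1 and Aldh9a1) had both below, beside 41.5%. In α7E260A:G these were 12 members beside 15.8% and 0 members beside 2.78%. Members in both counts of higher genes were Adh1, Adh7, Akr1a4, Akr1b10, Aldh3b1, Aldh7a1, Cbr1 and Cbr3.

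The difference between the 2 CS responses had an adjusted p under 0.05 for 0 members, beside 0% of all tested genes, and an unadjusted p under 0.05 for 0 members, beside 1.42%. DESeq2 also gave 0 members with an adjusted p under 0.05, beside 0.0417% of all tested genes. Without the α7E260A:G control male library the unadjusted count was 3, and without the α7G control male library it was 1.

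**Figure D4:**
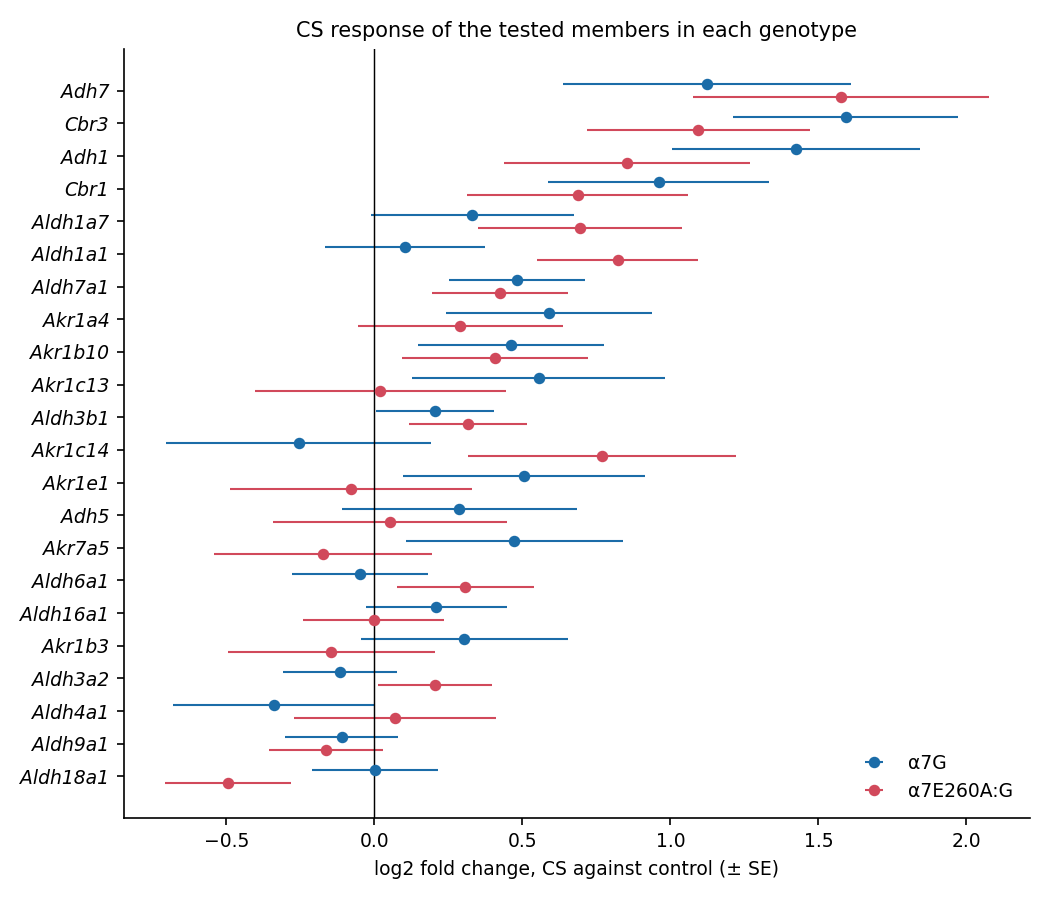
Log2 fold change of CS against control (± SE, edgeR) of the 22 tested members in α7G and in α7E260A:G, ordered by the mean of both. Adh7, Cbr3 and Adh1 lie at the top in both lines, whereas Cbr1 (0.96 in α7G and 0.69 in α7E260A:G) lies below Aldh1a1, Akr1c14 and Aldh1a7 in α7E260A:G, and Aldh1a1 (0.10 and 0.82) and Akr1c14 (-0.26 and 0.77) are farther apart than most.

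Between the genotypes, the data show less Adh7 in α7E260A:G, and log2 fold changes of -0.66 to 0.48 in the other members tested. Adh7 was lower in α7E260A:G in both exposures and both sexes, with 32.8 ± 22.6 RPM (SD, n = 4) against 82.7 ± 44.6 RPM (n = 4) in α7G, and among the controls it was 20.2 and 12.5 RPM against 40.4 and 69.1 RPM. The log2 fold change was -1.39 (SE 0.35, edgeR, unadjusted p = 0.0050, adjusted p = 0.16), and the exact permutation p was 0.0571, since the female α7E260A:G CS library overlapped α7G. Its unadjusted p was under 0.05 in 8 of 8 fits that left out 1 library. DESeq2 gave an adjusted p of 0.0056, and a fit with an offset for CDS length an adjusted p of 0.045.

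In total 3 members had an unadjusted p under 0.05, all lower in α7E260A:G (Adh7, Aldh7a1 and Aldh1a7), beside 11.9% of all tested genes, 7.09% higher and 4.78% lower. There were 0 members with an adjusted p under 0.05 by edgeR, beside 0.0834%, and 1 of 22 (Adh7) by DESeq2, beside 5.87%. The log2 fold change was -0.41 (SE 0.16, unadjusted p = 0.040) for Aldh7a1 and -0.58 (SE 0.24, unadjusted p = 0.047) for Aldh1a7. Of the 8 fits that left out 1 library, only 1 gave an unadjusted p under 0.05 for Aldh7a1 and 3 for Aldh1a7. The count of 3 was 1 without the α7G control female, the α7G CS male or the α7E260A:G CS male library, 7 without the α7E260A:G control male and 5 without the α7E260A:G control female library. In RPM, 0 of the 22 tested members had all 4 α7E260A:G libraries above all α7G libraries, beside 2.99% of all tested genes, and 0 had all below, beside 5.15%.

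Paired by sex and exposure, the α7E260A:G library held less of 5 members (Adh7, Aldh7a1, Cbr1, Akr7a5 and Aldh6a1) than its α7G counterpart in 4 of 4 pairs, beside 15.0% of all tested genes, and more of 2 members (Akr1a4 and Akr1b10), beside 7.84%. Akr1a4 had 1102 ± 247 RPM in α7E260A:G against 846 ± 173 RPM in α7G (SD, n = 4 each, exact permutation p = 0.14). The median log2 fold change between the genotypes was -0.08 over the members and 0.04 over all tested genes. The summed markers of type 2 cells were lower and those of alveolar macrophages higher in α7E260A:G, as given above. Those of club cells were at 14987 to 48266 RPM in α7E260A:G and 44799 to 71638 RPM in α7G, with the female α7E260A:G control above the lowest α7G library, and the part of these markers in these differences was not tested.

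**Figure D5:**
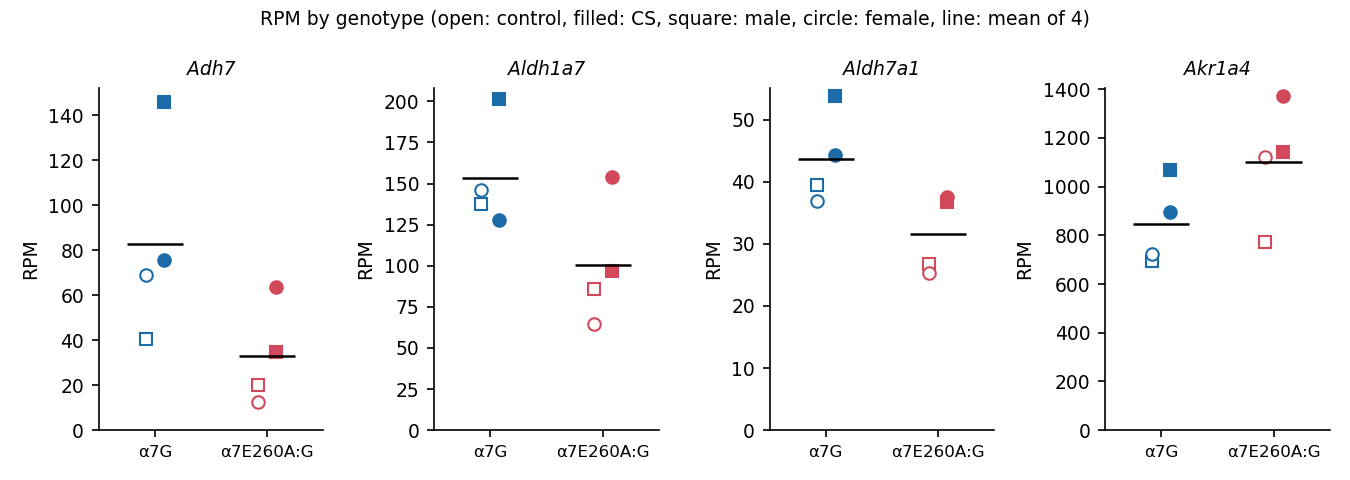
RPM of 4 members in the 4 libraries of each genotype, with the mean as a line, open symbols for control and filled for CS, squares for male and circles for female. Adh7 (mean 82.7 against 32.8 RPM), Aldh1a7 and Aldh7a1 lie lower in α7E260A:G and Akr1a4 lies higher, with overlap of at least 1 library in each.

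Below the abundance filter, 6 members had the largest ratios of mean RPM between exposures or genotypes, in either direction. They were Akr1c18, Adh6a, Akr1c19, Aldh3b2, Aldh1l1 and Akr1b7, each lower in the mean of α7E260A:G. This choice favours genes of few counts, such as Adh6a with a mean of 1.75 and Akr1b7 with 4.5. Of the other low members, Akr1c12, Aldh1b1 and Aldh1l2 were higher in the mean of α7E260A:G. Aldh1l1, the 10-formyltetrahydrofolate dehydrogenase, had 162 and 234 counts in the male and female α7G control and 181 and 138 after CS. The male and female α7E260A:G control had 93 and 112 counts and the CS libraries 63 and 104. In RPM its α7E260A:G libraries (7.85 to 11.5) all lay below its α7G libraries (15.6 to 24.98), a ratio of means of 0.505. Of all tested genes 5.15% lay so, and the share among genes below the filter was not taken. In the edgeR fit of 14140 genes the log2 fold change of Aldh1l1 between the genotypes was -0.89 (SE 0.25, unadjusted p = 0.0084, adjusted p = 0.22). Akr1c18, the 20-alpha-hydroxysteroid dehydrogenase of progesterone breakdown, had 0 to 14 counts in α7E260A:G and 9 to 49 in α7G. Akr1c19 had 5 to 35 counts in α7E260A:G and 21 to 49 in α7G. Aldh3b2 and Akr1b7 had at most 11 counts in any library.

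The other retinaldehyde dehydrogenases were far below Aldh1a1. Aldh1a2, which makes retinoic acid in embryonic and mesothelial tissue, had 86 and 168 counts in the male and female α7G control and 127 and 197 after CS. In α7E260A:G it had 72 and 61 counts in the male and female control and 94 and 156 after CS, so in RPM it was higher with CS in each sex and genotype (5.57 to 17.9 RPM in controls, 11.7 to 22.2 RPM after CS). Its log2 fold change with CS in that fit was 0.76 (SE 0.31, unadjusted p = 0.039, adjusted p = 0.65). Aldh1a3 was at 0.822 to 5.70 RPM (log2 fold change with CS 0.90, SE 0.41, unadjusted p = 0.062). Mitochondrial Aldh1b1 was at 7.69 to 14.3 RPM and higher in α7E260A:G in 4 of 4 pairs of the same sex and exposure (log2 fold change 0.54, SE 0.22, unadjusted p = 0.040, adjusted p = 0.41). Of 9 genes of retinoid transport and retinoic acid breakdown, all were counted and none reached the abundance filter. Their sum was 31.5 to 39.1 RPM in controls and 44.9 to 92.3 RPM after CS. This sum was not tested, and how far single genes carried it was not examined.

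Other enzymes of the same chemistry outside the 42 were examined as a list of 33, of which 25 were tested. With CS, 5 of 25 had an unadjusted p under 0.05 and were higher, beside 2.5% of all tested genes, 0 were lower, beside 5.08%, and 0 had an adjusted p under 0.05 in edgeR, and 21 of 25 had a log2 fold change above 0. The smallest p belonged to Akr1b8 (log2 fold change 1.58, SE 0.22, unadjusted p = 0.00018), an aldo-keto reductase of the 1B class, Aldh3a1 (1.54, SE 0.37, unadjusted p = 0.0042), which oxidises aromatic and lipid aldehydes, and Sord (0.59, SE 0.20, unadjusted p = 0.022), the sorbitol dehydrogenase. Between the genotypes 1 of 25 was higher in α7E260A:G at an unadjusted p under 0.05, beside 7.09% of all tested genes, and 3 were lower, beside 4.78%, with the smallest p for Aldh3a1 (log2 fold change -1.68, SE 0.37, unadjusted p = 0.0026), Aox3 (-0.89, SE 0.20, unadjusted p = 0.0032), an aldehyde oxidase, and Aldh2 (-0.39, SE 0.14, unadjusted p = 0.027), the mitochondrial acetaldehyde dehydrogenase. Aldh3a1, like Adh7, was higher with CS and lower in α7E260A:G, with 111 and 93.4 RPM in the male and female α7G control, 329 and 124 RPM in α7G CS, 28.9 and 19.0 RPM in α7E260A:G control and 57.5 and 112 RPM in α7E260A:G CS.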

How the data were processed

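Per the labels and the study's methods, CD45-positive cells were removed with magnetic beads from lavaged lungs and stranded TruSeq mRNA libraries were made. The authors aligned the reads with STAR to NCBIM37 (mm9) and used htseq-count to count those on the CDS of GENCODE M1. Versions of these tools were not given in the sources used here. The deposited values are raw counts of 22756 genes per library, all present in GENCODE M1 under the same symbol, and that annotation gave the coordinates and CDS lengths.

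Counts were divided by the library total to give RPM. Genes with a mean of at least 200 counts were kept, leaving out immunoglobulin, histocompatibility, Gm and ribosome subunit genes by name (7190 genes), and entered the quasi-likelihood test of edgeR (version 4.0.16, with limma 3.58.1, under R 4.3.3). The model held the 4 groups and no sex term, TMM factors scaled the libraries, and Benjamini-Hochberg adjustment ran over all 7190 genes, called at 0.05. All p-values named edgeR, adjusted or unadjusted, come from it. Single members were also compared by a two-sided exact permutation test of mean RPM over 70 arrangements. Correlations used log2(RPM + 0.5). Of the tests, only the edgeR contrast of CS over both genotypes was checked on simulated counts, with the same dispersion for all genes. Python 3.11.15, numpy 2.4.6, pandas 2.3.3, scipy 1.17.1 and matplotlib 3.10.9 were used.

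Libraries were grouped by the labels' genotype, exposure and sex. The labels do not say whether libraries of a sex share a batch, and nothing says that a library is 1 animal, so p-values measure the spread between these libraries. The depths of 8020726 to 10944100 counts make 3 counts equal to 0.274 to 0.374 RPM, and intervals and floors cover counting error only. Values in every library are given for tested members with an unadjusted p under 0.05 in any edgeR contrast, with libraries that do not overlap between exposures or genotypes, or among the 6 highest in RPM, and for up to 6 low members whose levels differ most. From the list of other enzymes the 3 with the smallest p per comparison of 4 against 4 libraries are named. Cbr2 is also given, because of its level. Members outside this rule that are given in each library (Akr1c14, Aldh1a2) were chosen after their values were seen. The members, the lists and the tests were chosen with earlier results of these data known. Alternatives were DESeq2 1.42.0, library size scaling, the filterByExpr filter (14140 genes), no filter but 1 count (17542 genes), sex as a block, an offset for CDS length, both together, a fit of 1 genotype, TMM scaling of RPM, a minimum of 10 counts, and leaving out each library in turn.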

Additional observations from a re-analysis of the deposited data

Results flagged for a closer look

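Of 40 sets of 4 libraries (10 named members in each genotype and each exposure), 2 held a library far from the other 3 by Dixon's criterion, which chance alone gives in about 1 in 20 sets. Aldh3b1 had 287 RPM in the female α7G CS library, while the other 3 α7G libraries lay between 256.9 and 261.7 RPM. Cbr3 had 29.7 RPM in the female α7G control, while the other 3 controls lay between 24.9 and 25.5 RPM. Aldh3a2 moved in opposite directions in the 2 lines, with a CS to control ratio of mean RPM of 0.849 in α7G, lower in both sexes, and 1.21 in α7E260A:G, higher in both sexes. The edgeR contrast of the difference of its log2 fold changes was 0.32 (SE 0.27, unadjusted p = 0.28).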

How the results depend on the processing

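Of 306 alternative values of the log2 fold changes of named members, 295 kept their direction and their side of an adjusted p of 0.05, 9 passed it, and 2 changed sign, both for Adh5 with CS over both genotypes (from -0.035 without the α7E260A:G control male to 0.51 without the α7E260A:G control female library, and -0.0067 without the α7E260A:G CS female library). The 9 were Adh7 between the genotypes (DESeq2 -1.39, CDS length offset -1.30, offset with sex as a block -1.31), Adh7 and Cbr3 with CS by DESeq2 (1.35 and 1.34), and in α7G Adh1, Cbr1 and Cbr3 in the fit of 4 libraries (1.42, 0.96 and 1.59) and Cbr3 by DESeq2 (1.60). Members with an adjusted p under 0.05 thus numbered 1 (DESeq2) and 3 (4 libraries) for CS in α7G, 2 (DESeq2) for CS over both genotypes and 1 between the genotypes (DESeq2, the offset, and the offset with the block). Members with an unadjusted p under 0.05 for CS in α7G numbered 6 with the offset, 6 with the offset and block and 7 in the fit of 4 libraries, for CS in α7E260A:G 6 with the offset and block, and for the difference of responses 1 with library size scaling, 1 with all genes, 1 with the offset and 2 with the offset and block. Leaving out each library in turn gave 1 to 5 for CS in α7G, 0 to 7 for CS in α7E260A:G, 0 to 3 for the difference of responses, 1 to 7 between the genotypes and 3 to 10 for CS over both genotypes. Over all tested genes DESeq2 gave 39 adjusted calls for CS and 422 between the genotypes, where edgeR gave 0 and 6.

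The median of the members for the difference of responses, -0.14, was 0.079 with library size scaling, and ran from -0.29 to 0.17 when each library was left out, with 0.030 without the α7G CS male and 0.17 without the α7E260A:G control female library. With library size scaling the median log2 fold change of all genes with CS in α7G was -0.14 instead of -0.02, and of all genes with an unadjusted p under 0.05 for CS over both genotypes 59.9% instead of 33.0% were higher, while 85.8% instead of 66.4% were higher for CS in α7E260A:G, 80.4% instead of 60.8% for the difference of responses and 45.9% instead of 59.7% between the genotypes. Members not overlapping between exposures numbered 4 to 7 higher and 0 to 2 lower without a library each, and between the genotypes 0 to 2 higher and 0 to 3 lower. With a minimum of 10 counts 1 was lower in α7E260A:G, and for CS in α7E260A:G 1 was lower, as were 2 with TMM scaling.

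Deviations of libraries of the same sex correlated across genes with r of -0.10 to 0.17 in the pairs of groups with α7G CS. In the other pairs r was 0.54 to 0.84, the highest between α7E260A:G control and α7E260A:G CS. Since this was not seen in all pairs of groups, sex was not taken to pair the libraries in the main model. With sex as a replicate block the adjusted count of members stayed at 0 in the 5 comparisons, and that of all genes between the genotypes was 40. Counts of a library changed with CDS length by -0.24 to 0.41 (log2 per doubling), and the tested members were shorter (median 1123.5 bases) than all tested genes (1547.5). In male and female libraries this change was 0.23 and 0.06 in α7G control and -0.24 and -0.20 in α7G CS. In α7E260A:G it was 0.41 and -0.24 in control and 0.19 and -0.20 in CS. With 2 libraries in a group, differences between sexes and between libraries cannot be told apart.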
